A study of Mus musculus with 5 samples.

Results

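The 4 genes described here are the neutrophil chemokine genes Cxcl1 and Cxcl2, the gene of their receptor Cxcr2, and Pf4, which encodes platelet factor 4. They were taken as listed columns, 4 of the 19736 genes with a molecule in any of 5 single-cell libraries of mouse liver. CXCL1 and CXCL2 are small secreted proteins that bind CXCR2 on neutrophils and draw these cells out of the blood. In the liver, macrophages, endothelial cells and stromal cells can make them after injury, and stretched sinusoidal endothelium has been described as a source of CXCL1 in the congested liver. Platelet factor 4 is stored in platelet granules, binds heparin-like sugar chains and is also made by some tissue macrophages.

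All animals were wild-type males, had surgery when 9 weeks old and gave their livers 2 weeks after it. In 3 libraries (pIVCL 1, 2 and 3) the inferior vena cava had been partly ligated, which congests the liver, and in the other 2 (sham 1 and 2) the surgery was a sham. After digestion with pronase and collagenase, centrifugation had removed most hepatocytes, red cells and dead cells, so shares of cells are shares of what this preparation held. Samples pIVCL 1, sham 1 and sham 2 belonged to batch 2021.3 and samples pIVCL 2 and pIVCL 3 to batch 2021.7, so that pIVCL 1 alone can be set against sham within a batch. In such a within-batch value only the 2 sham libraries supply the spread. The labels tie each library to a mouse without stating that the mice differed, and p-values here measure the spread between libraries.

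Of 19815 deposited cells, 16672 were retained, 2523 to 3379 per pIVCL library and 3716 to 4308 per sham library, with 10803597 to 18009323 and 22613278 to 27145167 molecules. Median molecules per cell were 2888 to 4336 in pIVCL and 5099.5 to 5400 in sham. Between 8 and 30 cell indices were shared by any 2 libraries. Levels are given as CPM, molecules of the gene per 1000000 molecules of the same cell class and library. A change was called at an adjusted p under 0.05 in edgeR's quasi-likelihood test over all genes of the class.

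The promoter sequences are shown because 3 of the 4 genes lie on chromosome 5 and because the signalling protein NF-kappaB is a known inducer of Cxcl1 and Cxcl2. The 150 bases before each gene's start are from RefSeq on GRCm38.p6, plus strand, at chr5:90891095-90891244 for Cxcl1, chr5:90903749-90903898 for Cxcl2, chr5:90772285-90772434 for Pf4 and chr1:74153844-74153993 for Cxcr2. The molecule counts were made on another build, GRCm39. Capitals mark matches to the 10-base kappaB motif on either strand.
Cxcl1: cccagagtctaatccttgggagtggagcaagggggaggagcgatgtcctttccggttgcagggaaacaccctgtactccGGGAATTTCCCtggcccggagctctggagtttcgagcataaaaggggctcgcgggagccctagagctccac
Cxcl2: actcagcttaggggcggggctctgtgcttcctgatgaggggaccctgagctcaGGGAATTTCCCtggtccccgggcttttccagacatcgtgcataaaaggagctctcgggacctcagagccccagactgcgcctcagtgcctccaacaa
Pf4: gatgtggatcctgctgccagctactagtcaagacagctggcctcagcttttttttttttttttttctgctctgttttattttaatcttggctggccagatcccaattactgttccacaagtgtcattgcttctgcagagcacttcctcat
Cxcr2: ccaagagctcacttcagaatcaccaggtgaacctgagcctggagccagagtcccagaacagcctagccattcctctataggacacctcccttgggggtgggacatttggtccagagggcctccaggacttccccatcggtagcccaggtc
The motif matched on both strands in Cxcl1 and Cxcl2, the matches overlapping, and began 71 and 97 bases before the start on the plus strand. In the Pf4 and Cxcr2 windows these letters had no match. Of 32851 mouse promoters of this length, 4.60% held the motif. The longest run that Cxcl1 and Cxcl2 shared was gggaatttccctgg, 14 bases that begin with the motif, and 68% of the 150 bases were identical when the windows were aligned. A match is a description of the letters and not a measured binding site, and the share of identical bases is given without a background value.

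Most molecules of each gene lay in 1 or 2 cell classes. Of the retained molecules, Kupffer cells, the resident liver macrophages, held 45.3% of Pf4 and 59.2% of Cxcl2, endothelial cells held 61.1% of Cxcl1, and neutrophils held 87.0% of Cxcr2. A smaller myeloid class with macrophage and monocyte markers but Clec4f, a Kupffer cell marker, in under 50% of cells held a further 26.5% of Pf4 and 15.8% of Cxcl2. It was led by Cx3cr1, F13a1 and Ccr2 and is called Clec4f-low myeloid below. Its rule was set after the clusters had been seen.

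**Figure D1:**
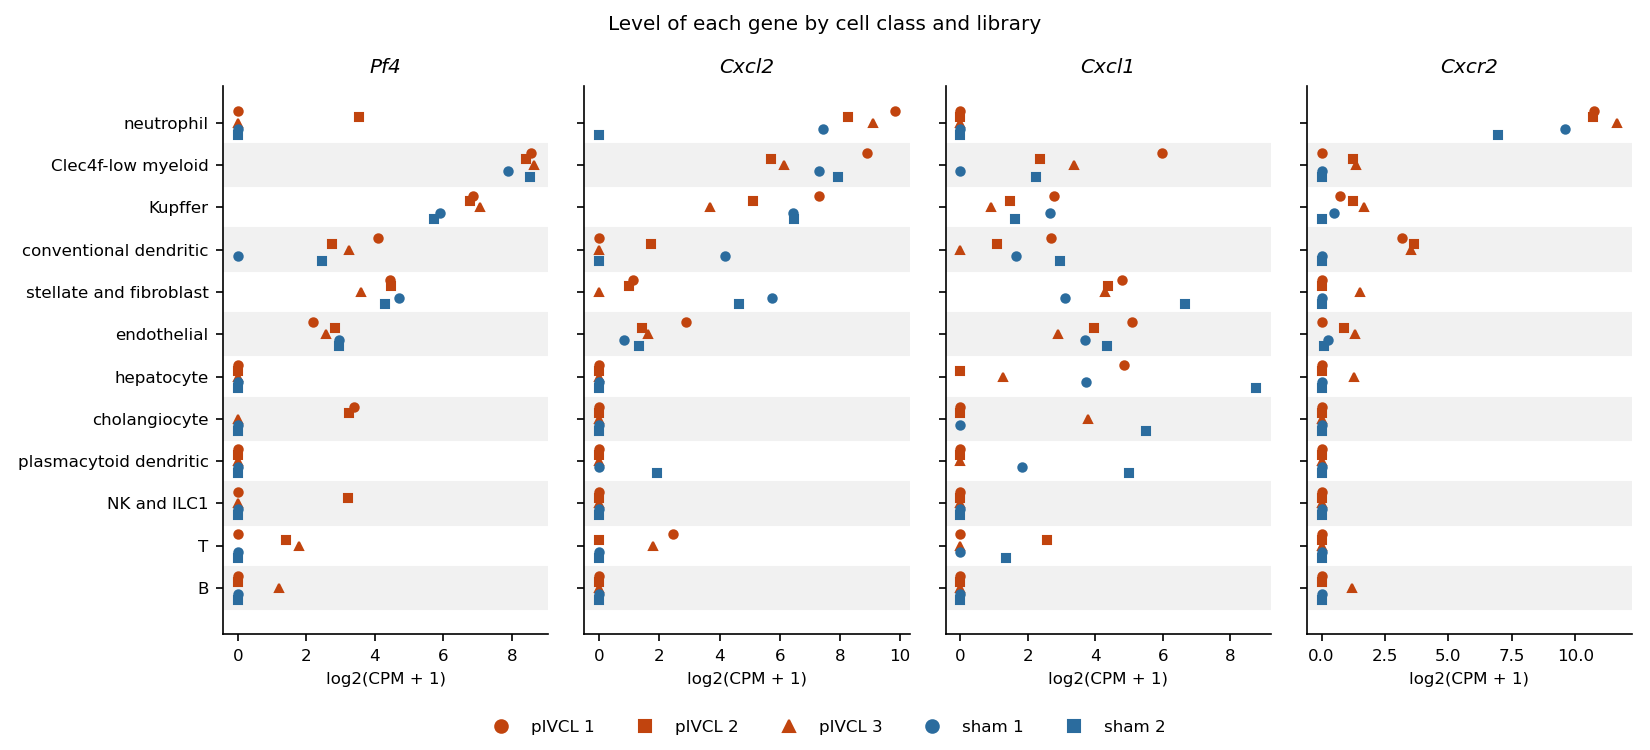
Level of each gene in 12 cell classes, as log2(CPM + 1) on the horizontal axis, with 1 point per library, pIVCL in red above sham in blue. Pf4 and Cxcl2 lie highest in the myeloid classes, and Cxcr2 in neutrophils. Cxcl1 is found in stromal and endothelial cells of all 5 libraries, with single high values in small classes such as the 4 hepatocytes of sham 2.

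Pf4 had the clearest order of levels. Clec4f-low myeloid cells held 378, 342 and 396 CPM in pIVCL 1, 2 and 3, against 238 and 365 CPM in sham 1 and 2. Kupffer cells held 115, 108 and 134 CPM in pIVCL 1, 2 and 3, against 58.7 and 51.8 CPM in sham 1 and 2. Across the 5 libraries these ranges did not overlap, and the Clec4f-low class was the higher. Stellate cells and fibroblasts had 11.1 to 21.2 CPM in pIVCL and 18.6 to 25.1 CPM in sham. Endothelial cells were lower again, at 3.57 to 6.17 CPM in pIVCL and 6.72 to 6.74 CPM in sham. T cells, NK cells with ILC1, B cells and neutrophils together held 5 Pf4 molecules.

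In Kupffer cells Pf4 rose in pIVCL livers. The raw counts were 178, 244 and 304 molecules in 214, 304 and 367 pIVCL cells, against 454 and 226 molecules in 795 and 484 sham cells. All 3 pIVCL libraries lay above both sham libraries, also with their counting intervals, whose lowest pIVCL bound was 95.1 CPM and whose highest sham bound was 64.3 CPM. In either direction, the groups did not overlap for 3073 of the 9795 genes tested in Kupffer cells. The log2 fold change of Pf4 was 1.07 ± 0.15 (SE, edgeR quasi-likelihood, adjusted p = 0.0427), and 0.102% of the 9795 genes were called. Per cell this was 0.832, 0.803 and 0.828 molecules in pIVCL 1, 2 and 3, against 0.571 and 0.467 in sham 1 and 2, in Kupffer cells that held 6199 to 7411 molecules each in pIVCL and 9022 to 9736 in sham. Within batch 2021.3, with 1 pIVCL library, the fold change was 1.03. The call was lost without sham 1, sham 2, pIVCL 2 or pIVCL 3 (adjusted p of 0.288, 0.435, 0.139 and 0.173 by edgeR), with batch as a term (0.448) and with the replicate block (0.375), at values of 0.995 to 1.15. After thinning to 1000 molecules per cell the fold change was 0.67 (edgeR adjusted p = 0.268).

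The share of Kupffer cells with a Pf4 molecule was 34.1, 38.8 and 38.7% in pIVCL 1, 2 and 3, against 31.6 and 27.1% in sham 1 and 2. Endothelial cells had it in 1.32 to 2.18% of cells in pIVCL and 2.97 to 3.21% in sham. They held 4308 to 4734 molecules per cell in pIVCL and 5172 to 5397 in sham. When each cell was thinned to 1000 molecules, the Kupffer shares were 6.07, 9.21 and 9.04% in pIVCL, against 6.54 and 4.75% in sham, and the groups overlapped (mean difference 2.46 percentage points, exact permutation p = 0.4, two-sided). With 3 libraries against 2 this test cannot go below 0.2. The 10% of Kupffer cells richest in Pf4 held 52.6 to 62.4% of its molecules in pIVCL and 57.5 to 61.1% in sham.

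Platelets carry Pf4, so platelet genes were read beside it. The 6 platelet-defining genes other than Pf4 summed to 3.11 to 5.80 CPM in pIVCL and 1.15 to 2.20 CPM in sham Kupffer cells. Of the 6, Gp1bb and Tubb1, a platelet surface receptor subunit and the platelet tubulin, were at 0 in all 5 libraries. Ppbp, another of the 6, had 5, 4 and 3 molecules in pIVCL 1, 2 and 3 (3.22, 1.78 and 1.32 CPM). In sham 1 and 2 it had 9 and 0 (1.16 and 0 CPM). Without cells holding a molecule of a platelet- or neutrophil-defining gene, the Kupffer fold change of Pf4 was 1.19 ± 0.17 (edgeR adjusted p = 0.0262). This left 155, 202 and 253 of 214, 304 and 367 Kupffer cells in pIVCL 1, 2 and 3. In sham 1 and 2 it left 537 and 342 of 795 and 484. The platelet-defining genes held only 9, 7 and 9 molecules in pIVCL and 17 and 5 in sham Kupffer cells, so most removed cells held a neutrophil-defining gene. Hemoglobin and erythroid genes summed to 63.2, 1322 and 1529 CPM in Kupffer cells of pIVCL 1, 2 and 3, against 8.01 and 40.3 CPM in sham 1 and 2, and their part in the result was not tested.

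The Kupffer clusters differed in how far the groups stood apart for Pf4. In the main Kupffer cluster, led by Clec4f and Cd5l, Pf4 stood at 95.3, 101 and 123 CPM in pIVCL 1, 2 and 3, against 55.9 and 49.3 CPM in sham 1 and 2. In the second cluster, whose cells held fewer molecules, it stood at 85.8, 162 and 169 CPM in pIVCL and 130 and 68.5 CPM in sham, so the groups overlapped there. The second cluster made up 27.3% of pIVCL and 7.19% of sham Kupffer cells. The third cluster, of 95 cells with the DNA replication gene Pclaf among its leading genes, had 120 to 554 CPM in pIVCL and 63.8 to 80.3 CPM in sham. It held only 8, 14 and 4 cells in pIVCL 1, 2 and 3, against 46 and 23 in sham 1 and 2.

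In the other classes Pf4 was not called. The log2 fold changes were 0.27 ± 0.23 in Clec4f-low myeloid cells, -0.12 ± 0.39 in stellate cells and fibroblasts and -0.54 ± 0.30 in endothelial cells (edgeR adjusted p of 0.803, 0.899 and 0.301). In the Clec4f-low class 0.1% of 5974 genes were called, and leaving out sham 1 turned the Pf4 value to -0.03. Endothelial cells held 25, 44 and 17 molecules of Pf4 in pIVCL 1, 2 and 3, against 97 and 82 in sham 1 and 2. Over all libraries the endothelial clusters led by Jam2 and by Cyp1a1 had 0 CPM of Pf4, and the others 2.20 to 9.28 CPM. The part of background RNA in their value was not tested. The Kupffer effect exceeded the endothelial one by 1.56 ± 0.26 on the log2 scale in a model with library as a block (edgeR adjusted p = 0.0251, 0.764% of 12037 genes called). That difference was 1.94 within batch 2021.3, with 1 pIVCL library, and its call was lost without sham 1 or sham 2 (edgeR adjusted p of 0.50 and 0.369).

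**Figure D2:**
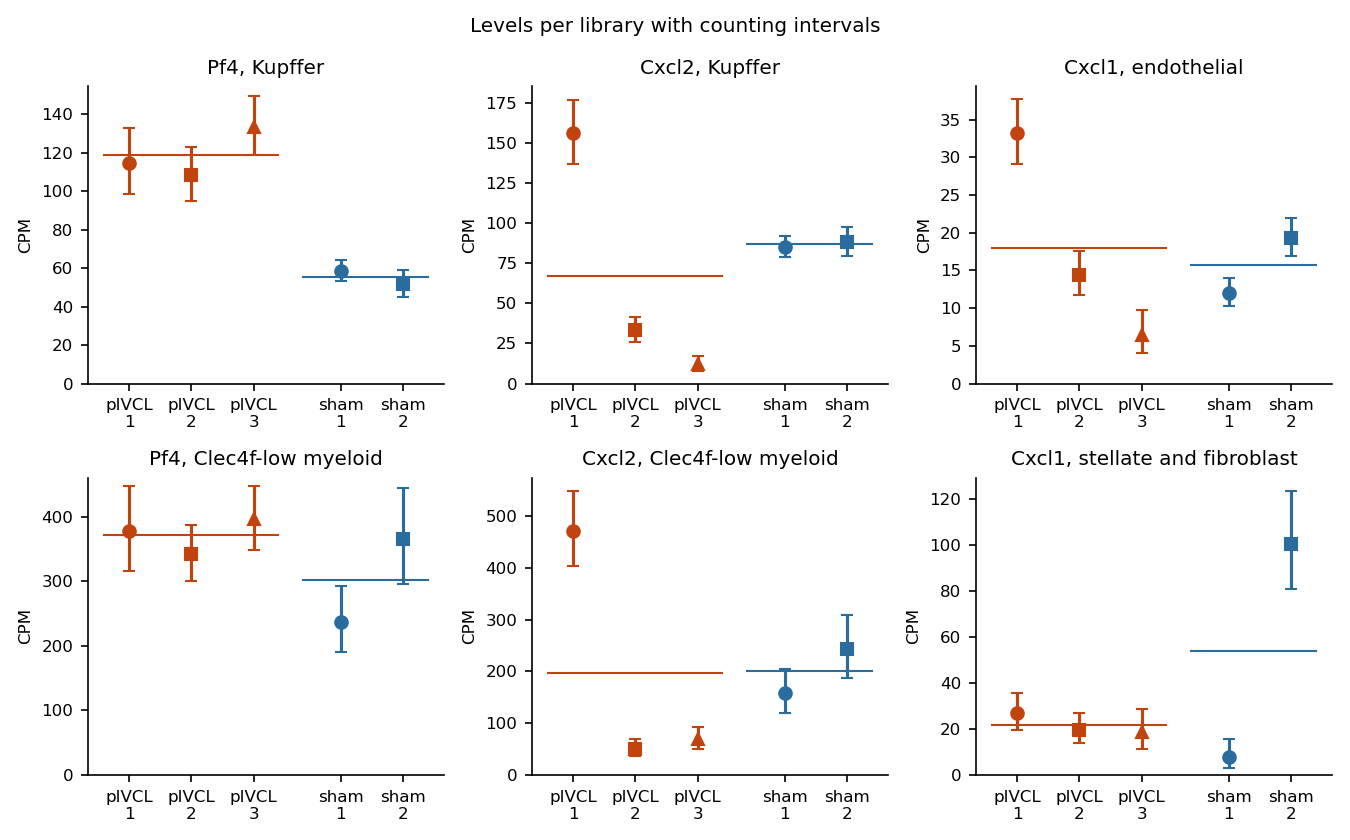
CPM of Pf4, Cxcl2 and Cxcl1 in the pair of classes where each is high, 1 point per library with its 95% Poisson interval, lines at group means, pIVCL in red left of sham in blue. For Pf4 in Kupffer cells all 3 pIVCL points lie above both sham points, while the pIVCL 1 points of Cxcl2 in both classes and of Cxcl1 in endothelial cells lie above all other libraries.

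Within the Clec4f-low class Pf4 was unevenly held. At a clustering resolution of 2 the class fell into a cluster with C1qa and Ms4a7 and a cluster with Ly6c2 and F13a1, genes of classical monocytes. In the first, Pf4 was at 497, 445 and 587 CPM in pIVCL 1, 2 and 3, against 406 and 354 CPM in sham 1 and 2. In the second, Pf4 was detected in 1 or 2 cells of each library, with 1 sham 2 cell holding all 37 of that library's molecules. Clusters were built from all genes, these included, so this is a description.

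Cxcl2 was a myeloid gene too, but it sat in few cells. In Clec4f-low myeloid cells it stood at 471, 50.8 and 69.9 CPM in pIVCL 1, 2 and 3, against 157 and 242 CPM in sham 1 and 2. Kupffer cells had 156, 33.3 and 11.9 CPM in pIVCL 1, 2 and 3, against 85.3 and 88.2 CPM in sham 1 and 2. The pIVCL libraries therefore lay on both sides of sham in both classes, with pIVCL 1 the highest of all 5 libraries. In every library the Clec4f-low class held more Cxcl2 than Kupffer cells, although the ranges over libraries overlapped.

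Neither class passed the test for Cxcl2. The log2 fold changes were -0.14 ± 1.32 in Clec4f-low myeloid cells and -0.46 ± 1.15 in Kupffer cells (edgeR adjusted p of 0.991 and 0.902). Within batch 2021.3, with 1 pIVCL library, they were 1.21 and 0.83. Without pIVCL 1 they were -1.76 ± 0.31 and -1.98 ± 0.45 (edgeR adjusted p of 0.00666 and 0.109). Leaving out sham 2, pIVCL 2 or pIVCL 3 gave 0.22, 0.35 and 0.30 in the Clec4f-low class, and leaving out pIVCL 3 gave 0.07 in Kupffer cells, none of them called. The direction of Cxcl2 in these classes depended on which libraries were read.

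A list of 18 immediate-early genes, which include Fos and Jun and respond within minutes to tissue handling, was lower in the later batch. It summed to 11703, 6526 and 3726 CPM in Kupffer cells of pIVCL 1, 2 and 3, against 11804 and 14635 CPM in sham 1 and 2. In Kupffer cells 1 of the 18 was called, the nuclear receptor gene Nr4a1, at -1.27 ± 0.19 (edgeR adjusted p = 0.0427), a call lost without any one library other than pIVCL 1, with batch as a term and with the replicate block (0.158 to 0.448). The list's median log2 fold change was -0.94 beside 0.01 for all genes tested. In Clec4f-low myeloid cells the list summed to 12618, 8447 and 5258 CPM in pIVCL, against 9737 and 15021 CPM in sham, with none of 17 tested called. Its part in the Cxcl2 levels was not tested, and batch and group cannot be told apart for pIVCL 2 and pIVCL 3.

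Single cells carried much of the Cxcl2. Kupffer cells had it in 15.9, 4.93 and 3.54% of cells in pIVCL 1, 2 and 3, against 9.18 and 10.5% in sham 1 and 2. The 5% of Kupffer cells richest in Cxcl2 held 81.0% of its molecules in pIVCL 1 and all of them in pIVCL 2 and pIVCL 3, against 93.2 and 89.9% in sham 1 and 2. The richest cells held 122 of 660 molecules in sham 1 Kupffer cells and 82 of 167 in the Clec4f-low cells of pIVCL 1.

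**Figure D3:**
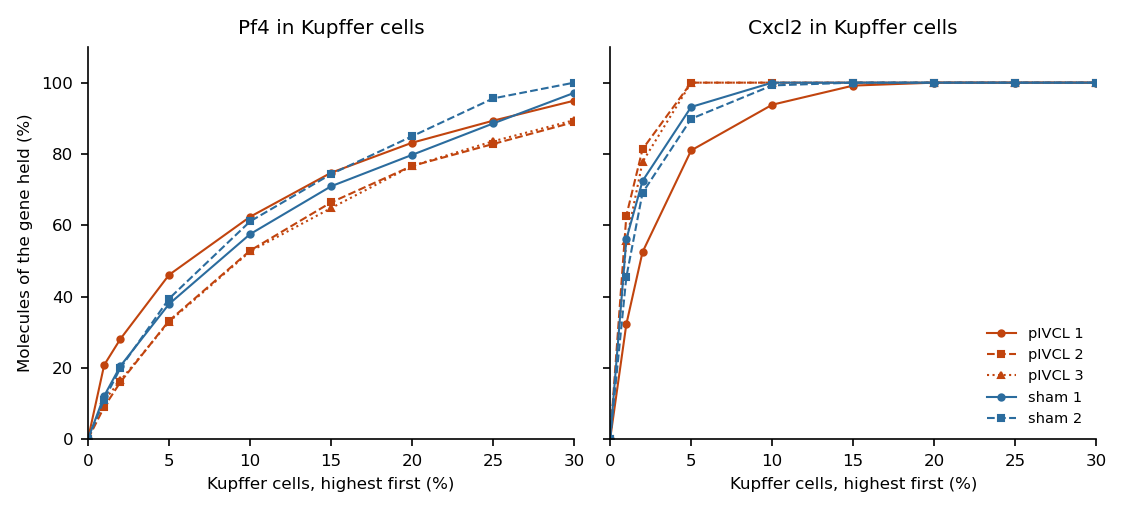
Share of all Pf4 (left) and Cxcl2 (right) molecules of Kupffer cells, in percent, held by the richest cells, with cells ranked from highest on the horizontal axis in percent and 1 line per library. The richest 10% of Kupffer cells hold 52.6 to 62.4% of Pf4 but 93.8 to 100% of Cxcl2.

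Cxcl2 in stellate cells and fibroblasts came almost wholly from a few sham cells. There were 2, 2 and 0 molecules in pIVCL 1, 2 and 3, against 48 and 22 molecules in sham 1 and 2. All pIVCL counts were thus below both sham counts. In either direction, the groups did not overlap for 3914 of the 9894 genes tested in this class. Cxcl2 passed the expression filter only through the sham libraries, with 0 pIVCL libraries at the required level, so its fitted value of -5.24 on the log2 scale is a description and its test is not read. In this class 5.39% of 9894 genes were called. All 70 sham molecules came from 6 cells of the cluster led by Col1a1. Of the 48 in sham 1, 40 lay in 1 cell, and of the 22 in sham 2, 18 lay in 1 cell. Each of these 6 cells also held at least 3 of 8 macrophage genes such as Lyz2 and C1qa, as did 6.94, 9.27 and 19.1% of the other cells of the class in pIVCL 1, 2 and 3 and 12.7 and 19.6% in sham 1 and 2. The 12 Kupffer markers summed to 422, 982 and 1020 CPM in this class in pIVCL 1, 2 and 3, against 5913 and 6501 CPM in sham 1 and 2.

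The class was made up unequally. The stellate cluster held 86.2% of it in pIVCL and 45.6% in sham, and the Col1a1-led cluster the rest. The Col1a1-led cluster also had Upk3b, Igfbp5 and Igfbp6 among its leading genes. With stricter cell filters, a cluster of 126 cells led by Igfbp5, Upk3b and Igfbp6 was left unnamed, beside a cluster of 70 cells led by Col1a1. In the stellate cluster alone Cxcl2 had 2, 2 and 0 molecules in pIVCL and none in either sham library, and fell under the expression filter. The fitted difference from the endothelial effect, -6.83 on the log2 scale, uses the same 6 sham cells and is a description too, in a fit that called 5.26% of 12064 genes.

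Endothelial cells held little Cxcl2. They had 45, 12 and 7 molecules in 1515, 1655 and 720 pIVCL cells, against 11 and 18 molecules in 2676 and 2354 sham cells. At 6.42, 1.68 and 2.05 CPM in pIVCL against 0.762 and 1.48 CPM in sham, the pIVCL libraries lay above both sham libraries. In either direction, the groups did not overlap for 4980 of the 11357 genes tested in endothelial cells. The log2 fold change of Cxcl2, 1.57 ± 0.69, was not called (edgeR adjusted p = 0.213, with 5.43% of 11357 genes called in endothelial cells). It was 2.48 within batch 2021.3, where pIVCL 1 is the pIVCL library, and 0.62 without pIVCL 1. The Kupffer effect was lower than the endothelial one by 1.96 on the log2 scale and not called (-1.96 ± 0.45, edgeR adjusted p = 0.0947).

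Cxcl1, the chemokine described for stretched sinusoidal endothelium, had most of its molecules in endothelial cells, which also held 44164945 of the 91052160 retained molecules. Relative to all molecules of the class its mean over libraries was higher in stellate cells and fibroblasts, at 34.7 CPM against 17.1 CPM in endothelial cells. By library the order varied. The stellate and fibroblast level was the higher in pIVCL 2, pIVCL 3 and sham 2, with sham 2 far above the rest, and the lower in pIVCL 1 and sham 1. Endothelial cells held 233, 103 and 22 molecules in pIVCL 1, 2 and 3, against 174 and 235 molecules in sham 1 and 2. As CPM these were 33.2, 14.4 and 6.45 in pIVCL, against 12.0 and 19.3 in sham. The highest and the lowest library were both pIVCL, and the groups overlapped. The log2 fold change was 0.20 ± 0.63 (edgeR adjusted p = 0.88). Within batch 2021.3, with 1 pIVCL library, it was 1.04, and without pIVCL 1 or sham 1 it was -0.57 and -0.13, not called.

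A Cxcl1 molecule was found in 6.53, 3.81 and 1.67% of endothelial cells of pIVCL 1, 2 and 3, against 4.15 and 5.01% of those of sham 1 and 2. Cells thinned to 1000 molecules had it in 2.44, 1.21 and 0.836% in pIVCL and 0.673 and 1.49% in sham (exact permutation p = 0.8, two-sided). Clusters that held most endothelial cells differed between the groups. In pIVCL, 42.7% lay in a cluster led by Esm1 and Angpt2, genes of angiogenic tip cells, and 21.0% in a cluster with Efnb2 and Dll4, while in sham 34.3% lay in a cluster led by Adam23 and 33.7% in one led by Wnt2. Cxcl1 in the Esm1 cluster was at 24.2, 20.8 and 9.29 CPM in pIVCL, against 5.55 and 29.1 CPM in sham, where 67 cells held 6 molecules. The immediate-early list stood at 9378, 6547 and 3536 CPM in endothelial cells of pIVCL 1, 2 and 3, against 7733 and 12406 CPM in sham 1 and 2, and its part in the Cxcl1 level was not tested.

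Stellate cells and fibroblasts held 26.8, 19.7 and 18.6 CPM of Cxcl1 in pIVCL 1, 2 and 3, against 7.64 and 101 CPM in sham 1 and 2. The sham libraries stood at both ends, and 80 of the 92 molecules of sham 2 lay in its Col1a1-led cluster. The log2 fold change was -1.18 ± 0.77 (edgeR adjusted p = 0.447) and it was 1.63 without sham 2. Over the libraries these levels overlapped with the endothelial ones. Kupffer cells held less Cxcl1 than endothelial cells in each library, at 0.879 to 5.80 CPM in pIVCL and 2.06 to 5.30 CPM in sham. Their log2 fold change was -0.61 ± 0.73 (edgeR adjusted p = 0.756), with 0.55 within batch 2021.3 and 0.30 without sham 1. In hepatocytes of sham 2, 1 cell held all 32 Cxcl1 molecules.

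Some cells held both Cxcl1 and Cxcl2. Of 8920 endothelial cells, 403 held Cxcl1, 46 held Cxcl2 and 15 held both. Of 2164 Kupffer cells, 31 held Cxcl1, 186 held Cxcl2 and 14 held both. In the sums over classes and libraries Cxcl2 went with Pf4 (r = 0.79) more than with Cxcl1 (r = 0.26), over 35 sums that share libraries and depth.

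**Figure D4:**
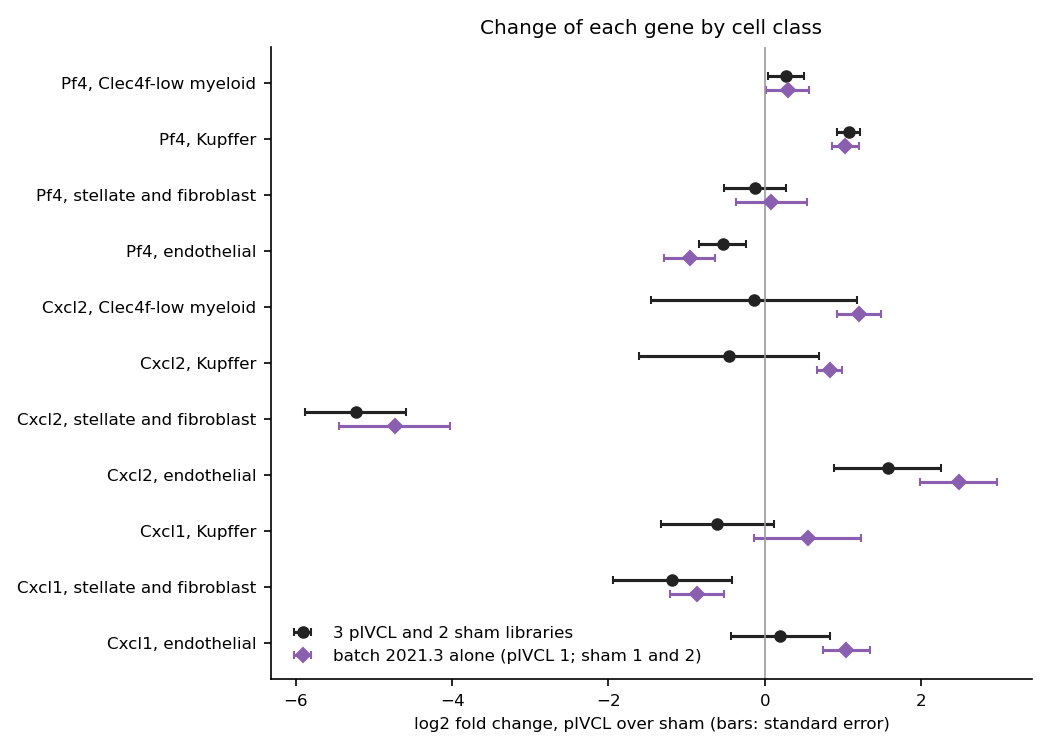
Log2 fold change of pIVCL over sham for each gene and class that passed the expression filter, with its standard error, from all 5 libraries (black circles) and from batch 2021.3 alone (purple diamonds, pIVCL 1 against sham 1 and 2). The Pf4 value in Kupffer cells is close to 1 in both, whereas Cxcl2 in Kupffer and Clec4f-low myeloid cells lies on opposite sides of 0. Cxcl2 in stellate cells and fibroblasts passed the filter only through sham.

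Cxcr2, the receptor of both chemokines, marked the neutrophil cluster. The cluster held 7, 26 and 31 cells in pIVCL 1, 2 and 3, against 5 and 1 cells in sham 1 and 2, and 34, 159 and 190 Cxcr2 molecules in pIVCL, against 18 and 1 in sham. A Cxcr2 molecule was found in 91.4% of these 70 cells and in 0.313% of the other 16602. The neutrophil cells had a median of 2340 molecules and the other cells one of 4730.5. Cxcr2 was among the leading genes of the cluster, so its level there is a description.

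As a share of retained cells, neutrophils made up 0.277% (95% exact interval 0.112 to 0.571), 0.769% (0.503 to 1.13) and 1.13% (0.768 to 1.60) in pIVCL 1, 2 and 3. In sham 1 and 2 they made up 0.116% (0.0377 to 0.271) and 0.0269% (0.000681 to 0.150). The means were 0.725 ± 0.427% in pIVCL and 0.0715 ± 0.063% in sham (SD, n = 3 and n = 2, exact permutation p = 0.2, the smallest this design can give). The pIVCL 1 interval overlapped that of sham 1.

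The sham cells in this cluster held lower levels of its markers than the pIVCL cells. S100a8 was found in 5, Retnlg in 4 and Cxcr2 in 4 of the 5 sham 1 cells. In the sham 2 cell Cxcr2 was found and the other 10 markers were not. The 10 neutrophil markers other than Cxcr2 made up 98628, 194828 and 137912 CPM in pIVCL 1, 2 and 3, against 13100 CPM in the 5 cells of sham 1 and 0 in the cell of sham 2. Endothelial markers in the same cells stood at 203 to 1403 CPM in pIVCL and 15058 to 21503 CPM in sham. Counted instead as cells with at least 3 of 6 neutrophil-defining genes among all deposited cells, there were 6, 24 and 30 cells in pIVCL, against 8 and 1 in sham (0.534 ± 0.340% and 0.0968 ± 0.102%, exact permutation p = 0.2). By this count the pIVCL 1 and sham 1 shares, 0.224 and 0.169%, had overlapping intervals.

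**Figure D5:**
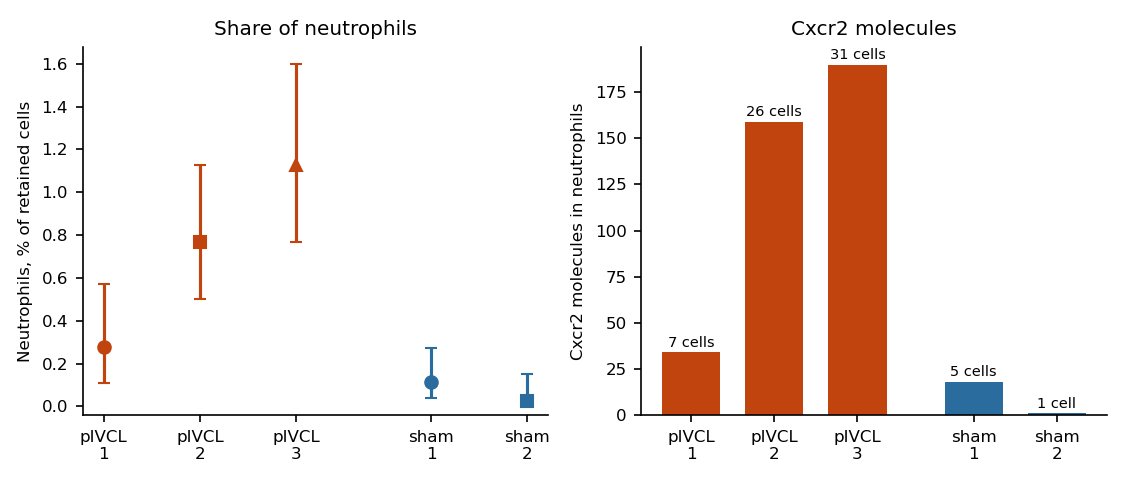
Left, neutrophils as a percentage of retained cells with 95% exact intervals; right, Cxcr2 molecules in those cells as bars with the number of cells above, pIVCL in red left of sham in blue. The pIVCL shares run from 0.277 to 1.13% and the sham shares from 0.0269 to 0.116%.

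Neutrophils also carried Cxcl2, the ligand of their own receptor, in 15 of the 70 cells. There were 18, 29 and 32 molecules in pIVCL 1, 2 and 3, against 4 and 0 in sham 1 and 2. Cxcl1 had no molecule in any of the 70 cells, which allows a share of up to 4.29% of cells with a molecule. The granule genes Ngp and Camp, made by young neutrophils, were found in 33 and 23 of the 70 cells. Neither was found in the 6 sham cells, whereas S100a8 and Retnlg were found in 5 and 4 of the 5 sham 1 cells. The sham 2 cell held none of the 10 neutrophil markers, and the age of the neutrophils was not tested. Outside neutrophils, conventional dendritic cells held 3, 10 and 5 Cxcr2 molecules in pIVCL 1, 2 and 3, against none in either sham library. These lay in 12 of 415 cells, and the class had 59, 140 and 84 cells in pIVCL and 69 and 63 in sham. The groups did not overlap, in either direction, for 1833 of the 6749 genes tested in this class. Cxcr2 passed the expression filter in none of the 7 tested classes, Cxcl1 did not pass in Clec4f-low myeloid cells, and Cxcl1, Cxcl2 and Pf4 passed in none of the T cell, NK cell with ILC1 and conventional dendritic classes.

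The other chemokines of the CXCR2 system were sparse. Cxcl3 had 10, Cxcl5 44, Ppbp 138 and the second receptor gene Cxcr1 2 molecules in all retained cells, and Cxcl15 had none. Of the Ppbp molecules 75 came from a single pIVCL 1 cell that also held 8 of Itga2b, 6 of Gp1ba and 5 of Pf4, platelet genes, and that had clustered with dendritic cells. Of Cxcl5, 34 molecules were in stellate cells and fibroblasts. Among 3 tested chemokine scavenger receptors Ackr1 rose and Ackr3 fell in stellate cells and fibroblasts, where 5.39% of all genes were called. Ackr1 averaged 70.8 ± 10.8 CPM in pIVCL and 25.2 ± 7.09 CPM in sham after TMM scaling, as for all CPM of list genes from here on, at 1.49 ± 0.28 on the log2 scale (edgeR adjusted p = 0.023). Ackr3 averaged 15.7 ± 3.92 CPM in pIVCL and 49.4 ± 2.30 CPM in sham (-1.63 ± 0.29, edgeR adjusted p = 0.0202). In endothelial cells all 3 tested scavengers missed the threshold.

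Calls in stellate cells and fibroblasts stand beside the unequal make-up of the class and the Kupffer markers given above, 422 to 1020 CPM in pIVCL and 5913 to 6501 CPM in sham, whose part in them was not tested. Without sham 2 edgeR called 0 genes in the class, with 1190 at an unadjusted p under 0.05, so each call there was lost. In the stellate cluster alone the value of Ackr1 was 0.57 and that of the glypican Gpc6 1.00 on the log2 scale, neither called (edgeR adjusted p of 0.459 and 0.186), and Ackr3 fell under the filter.

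Of 12 listed partners of platelet factor 4, 9 were tested in endothelial cells, 2 fell and 7 missed the threshold, where 5.43% of all genes were called. Thrombomodulin (Thbd), an anticoagulant receptor to which PF4 binds, averaged 53.2 ± 6.73 CPM in pIVCL and 173 ± 14.0 CPM in sham (-1.69 ± 0.14, edgeR adjusted p = 0.0012), and it was called under each other setting run. None of these settings held the shares of the endothelial clusters fixed. Thbd was also listed here as a pericentral endothelial marker, as were Wnt2, Wnt9b and Rspo3. The Wnt2-led cluster held 1.93% of pIVCL and 33.7% of sham endothelial cells. A cluster led by Selp, with Wnt9b, Rspo3 and Wnt2 among its leading genes, went the other way, at 12.2% of pIVCL and 2.13% of sham. The part of this make-up in the endothelial calls was not tested. The heparan sulfate carrier Gpc1 averaged 11.6 ± 1.83 CPM in pIVCL and 33.1 ± 3.77 CPM in sham (-1.52 ± 0.18, edgeR adjusted p = 0.0062), a call lost without sham 2 (0.0575). In stellate cells and fibroblasts 10 were tested beside 5.39% of all genes called. Gpc6 was higher in pIVCL (1.74 ± 0.23) and the granule proteoglycan Srgn, a gene of leukocytes too, lower (-2.11 ± 0.36, edgeR adjusted p of 0.0105 and 0.0212). Srgn was not called in the stellate cluster alone (-2.35, edgeR adjusted p = 0.230). In Kupffer cells none of 8 was called, at a list median of -0.24 beside 0.01 for all genes.

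Inducers of these chemokines showed no call in endothelial, Kupffer or Clec4f-low myeloid cells. Of 16 listed genes, 12, 12 and 9 were tested there. Interleukin 1 beta (Il1b) in Kupffer cells stood at 255, 98.2 and 311 CPM in pIVCL 1, 2 and 3, against 420 and 458 CPM in sham 1 and 2 after TMM scaling, and the groups did not overlap (log2 fold change -0.99 ± 0.52, edgeR adjusted p = 0.488). Such groups, in either direction, were found for 3073 of the 9795 genes tested in Kupffer cells. In stellate cells and fibroblasts 11 of the 16 listed genes were tested, and Il1b and the toll-like receptor gene Tlr2 passed the expression filter only through sham, so that their tests are not read. Il1b had 3, 3 and 7 molecules in pIVCL, against 87 and 64 in sham, and Tlr2 had 8, 8 and 6 in pIVCL, against 20 and 26 in sham. Both are macrophage genes as well. None of the other 9 was called.

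Of 18 NF-kappaB response genes, 1 of 18 tested rose in endothelial cells, a share near the 5.43% of all genes called there, and 1 of 17 in Kupffer cells, where 0.102% of all genes were called. Icam1, the adhesion molecule that neutrophils grip, averaged 146 ± 21.5 CPM in pIVCL and 94.1 ± 5.17 CPM in sham endothelium (0.64 ± 0.15, edgeR adjusted p = 0.0465), a call lost without any one library other than pIVCL 1 and with batch as a term (0.0614 to 0.361). Vcam1 averaged 1090 ± 138 CPM in pIVCL and 450 ± 28.1 CPM in sham Kupffer cells (1.28 ± 0.15, edgeR adjusted p = 0.0427). That call too was lost without any one library other than pIVCL 1, with batch as a term, with the replicate block and with the mixed cluster 11, which holds Kupffer and endothelial markers (0.0667 to 0.384), at values of 1.13 to 1.33. The median of the tested members was 0.01 in endothelial and 0.02 in Kupffer cells, beside 0.00 and 0.01 for all genes. None of the mRNA-decay factors of chemokine transcripts, such as Zfp36, was called in endothelial, Kupffer, stellate and fibroblast or Clec4f-low myeloid cells, with 5 or 6 of 6 tested. The NF-kappaB list had no call in the last 2 of these, with 17 tested in each.

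Of the genes for neutrophil adhesion and extracellular traps, 2 of 6 tested rose in endothelial cells, beside 5.43% of all genes. P-selectin (Selp) stood at 70.9, 57.1 and 107 CPM in pIVCL 1, 2 and 3, against 21.3 and 20.7 CPM in sham 1 and 2 (1.89 ± 0.26, edgeR adjusted p = 0.0103), and Icam1, on this list too, was the other. The cluster led by Selp held 12.2% of pIVCL and 2.13% of sham endothelial cells, and the part of this in the Selp value was not tested. The Selp call was lost without sham 1 or sham 2 and with batch as a term (edgeR adjusted p of 0.10, 0.0990 and 0.0873). In stellate cells and fibroblasts 4 were tested, and the leukocyte genes Selplg and Itgb2 passed the filter only through sham. Selplg had 2, 8 and 3 molecules in pIVCL, against 17 and 34 in sham, and Itgb2 had 3, 15 and 12 in pIVCL, against 55 and 64 in sham. Of the 7 stretch and Notch genes, which include Piezo1, Notch1 and their target Hes1, all were tested in endothelial cells and none was called. The Notch target Hey1 was at 6.34, 23.4 and 17.4 CPM in pIVCL 1, 2 and 3, against 6.21 and 6.29 CPM in sham 1 and 2 (1.32 ± 0.50, edgeR adjusted p = 0.168). In stellate cells and fibroblasts the immediate-early genes Fos (-1.68 ± 0.30) and Fosb (-2.48 ± 0.51) fell among 18 tested (edgeR adjusted p of 0.0202 and 0.0347), beside 5.39% of all genes called. In the stellate cluster alone they were -1.27 and -1.26, not called (0.123 and 0.588).

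Genes with the most similar pattern were ranked by Pearson correlation of log2(CPM + 1) over 35 sums of 7 classes in 5 libraries, among 10808 genes with a mean of at least 5 CPM. For Pf4 these were Cd207 (r = 0.93), Cd14 (0.91), Creb5 (0.90), Ms4a7 (0.90) and Arhgap19 (0.90). For Cxcl2 they were Ms4a7 (0.89), Ccl7 (0.88), Adgb (0.88), Pla2g7 (0.88) and Adgre4 (0.88). For Cxcl1 they were Fzd8 (0.81), Sned1 (0.80), Nfix (0.79), Sspn (0.78) and Robo1 (0.78). For Cxcr2, whose mean in these sums without neutrophils was 1.20 CPM, they were Mpo (0.87), Ctsg (0.86), Elane (0.85), Prtn3 (0.84) and Prg2 (0.72), the first 4 being neutrophil granule genes. The sums share libraries and depth, so these values are descriptions.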

How the data were processed

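Liver non-parenchymal cells in 5 libraries, each described in the labels as from a wild-type male mouse, were profiled with BD Rhapsody whole-transcriptome chemistry and sequenced on the DNBSEQ platform. The authors deposited counts, the number of molecules of each gene in each cell, after the pipeline's correction of molecular identifiers, made with version 1.9.1 of the BD pipeline per the file headers and GRCm39 per the submitters' processing notes. Aligner, annotation and any correction for free RNA: not given in the sources used here. No such correction was made here.

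Cells with at least 500 molecules, at least 200 genes and at most 25% mitochondrial molecules were kept, and the 3% with the highest Scrublet doublet score per library were removed. Counts scaled to 10000 per cell gave 2000 variable genes, 30 principal components, 20 neighbours and 31 Leiden clusters at resolution 1 (scanpy 1.11.5). A marker counted when found in at least 25% of cells at 2-fold over other classes, and a class needed at least 3 and at least 40% of its markers. Left unnamed were 6 clusters (1043 cells), mostly with markers of a second class. Names were rebuilt here from markers.

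Counts were summed per library and class. Classes with at least 20 cells in every library were tested with edgeR 4.0.16 (quasi-likelihood, robust, TMM, filterByExpr, Benjamini-Hochberg), which had been tested on simulated data with 200 changed genes. Interactions had library as a block. Shares were compared by two-sided exact permutation in cells thinned to 1000 molecules, which left out 63 pIVCL 3 cells, with 9 comparisons adjusted together (lowest adjusted p = 0.72). Intervals (95% Poisson or exact binomial) cover counting error only, and the limit for a count of 0 is 3 counts.

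The members, lists and alternatives were chosen with earlier results of these data known. Genes named beyond the members were those of each list that passed in endothelial, Kupffer or stellate cells and fibroblasts, up to 4 per list and class by lowest p, with the 5 most similar genes per member. Il1b in Kupffer cells, Hey1, Cxcl3, Cxcl5, Cxcl15, Cxcr1, Ppbp, Itga2b, Gp1ba, Gp1bb, Tubb1, Ngp and Camp were named after their values were seen. Alternatives were DESeq2 size factors, the DESeq2 Wald test, no filter, batch as a term, batch 2021.3 alone, the replicate block, leaving out each library, doublets kept, stricter cell filters, resolution 2, removal of platelet- or neutrophil-marked cells, thinning, and changed cluster membership.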

Additional observations from a re-analysis of the deposited data

Results flagged for a closer look

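A difference of the pIVCL effect between cell classes passed the test for Pf4. For it, the pIVCL effect in Kupffer cells exceeded that in endothelial cells by 1.56 on the log2 scale (SE 0.26, edgeR interaction test, adjusted p = 0.0251). The endothelial effect rests on 25, 44 and 17 molecules in pIVCL and 97 and 82 in sham. The part of background RNA in it was not tested. Pf4 was higher in 3 of 3 pIVCL libraries than in either sham library in Kupffer cells and lower in 3 of 3 in endothelial cells. In either direction, the groups did not overlap for 3073 of 9795 genes tested in Kupffer cells and 4980 of 11357 in endothelial cells. For Cxcl2, the fitted difference of stellate cells and fibroblasts from endothelial cells was -6.83 on the log2 scale, a description only, since the gene entered the stellate fit through the sham libraries alone, with 2, 2 and 0 molecules in pIVCL and 48 and 22 in sham. Its sham molecules in that class came from 6 cells that also held macrophage genes, and the part of macrophage RNA in this value was not tested.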

How the results depend on the processing

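Of 220 values of the member genes under other settings, 174 had the same direction and call, 22 changed sign and 24 changed their call. The Pf4 change in Kupffer cells was 1.04 with batch as a term, 1.00 with the replicate block, 1.09 with stricter cell filters, 0.67 in thinned cells and 0.97 with the mixed cluster 11, none called, and 0.995 to 1.15 leaving out a library. Its difference from endothelial cells was 0.91 in thinned cells and 1.49 with cluster 11, not called, and 1.37 to 1.87 leaving out a library. Cxcl2 in Kupffer cells changed sign to 0.83 with batch as a term or in batch 2021.3 alone and to 0.14 without platelet- or neutrophil-marked cells (-1.98 to 0.073 leaving out a library). In Clec4f-low cells it changed sign to 1.21 with batch as a term or in batch 2021.3 alone and to 0.51 with stricter filters (-1.76 to 0.35). In endothelial cells Cxcl2 was called at 1.55 without the filter and at 2.48 with batch as a term or in batch 2021.3 alone (0.62 to 2.10). The Kupffer minus endothelial difference of Cxcl2 was called at -1.95 without the filter, -1.71 in batch 2021.3 alone and -1.86 in Kupffer cluster 2 alone (-2.49 to -1.59). The stellate minus endothelial one was -6.07, not called, without marked cells (-7.85 to -5.75), and Cxcl2 in stellate cells and fibroblasts was -5.71 to -4.60 leaving out a library. Cxcl1 in Kupffer cells changed sign to 0.57 with batch as a term and 0.55 in batch 2021.3 alone (-1.03 to 0.30), and ranged from -0.57 to 0.57 in endothelial cells and -2.07 to 1.63 in stellate cells and fibroblasts. Pf4 ranged from -0.033 to 0.61 in Clec4f-low cells, and in stellate cells and fibroblasts changed sign to 0.072 with batch as a term, 0.084 in batch 2021.3 alone and 0.12 with the replicate block (-0.33 to 0.12). Differences in shares of thinned cells, in percentage points, were -0.578 for endothelial Cxcl1 with all molecules and, leaving out a library, -0.0577 to 0.823 for it, -5.46 to 0.196 for stellate Cxcl1, -2.29 to 0.0875 for Kupffer Cxcl2 and -0.238 to 0.00485 for endothelial Pf4. The causes were not tested.

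Counts of genes called moved more. In Clec4f-low cells 6 became 98 without the filter, 17 by the DESeq2 Wald test, 12 with batch as a term, 53 in batch 2021.3 alone, 39 with the replicate block, 2 with stricter filters, 23 at resolution 2 and 0 to 82 leaving out a library. In Kupffer cells 10 became 426, 111, 0, 116, 3 and 1 under the first 6 of these settings, 25 without marked cells, 62 in thinned cells, 21 in cluster 2 alone, 0 with cluster 11 and 0 to 437 leaving out a library. In endothelial cells 617 became 1830 without the filter, 970 by the Wald test, 336 with batch as a term, 1030 in batch 2021.3 alone and 54 to 2560 leaving out a library. In stellate cells and fibroblasts 533 became 1587 in batch 2021.3 alone, 961 with the replicate block, 41 with stricter filters, 74 at resolution 2, 145 without marked cells, 102 in thinned cells, 59 in cluster 6 alone and 0 to 888 leaving out a library. Of the list genes, Thbd kept its call under every setting run, none of which held the shares of the endothelial clusters fixed. Without sham 2 each other called list gene lost it. In batch 2021.3 alone only the 2 sham libraries supply the spread. The replicate numbers did not pair the libraries: same-numbered deviations correlated at -0.19 to 0.10. The cluster choices and the settings for list genes were added after seeing the data. Cxcl2 gave no value in cluster 6 alone or, in stellate cells and fibroblasts, without marked cells. Sham cells were deeper, and with few molecules per gene small differences in Cxcl1, Cxcl2 and Cxcr2 were not detectable. Where a library is left out of sham, the lone one is assumed to vary like the pIVCL libraries.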
